A study of Mus musculus with 12 samples.

Results

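The comparison set male spinal cord astrocytes with a conditional knockout (cKO) of Nkx6-1 against male control astrocytes. It used 5 of the 12 libraries of the study: control replicates 1, 2 and 3, and cKO replicates 1 and 3. All animals carried Aldh1l1-GFP, a reporter that drives green fluorescent protein from the promoter of an astrocyte enzyme of folate metabolism, and green cells of the spinal cord were taken. The controls and the knockouts shared this reporter and differed by the labelled group. A library labelled male cKO replicate 2 was left out for the reasons given with the label checks, and its values appear only beside the results. The labels give no age and do not say which Cre driver or which segment of Nkx6-1 was used. Nor do they state that replicates are separate animals, so each p-value reflects the spread among these libraries alone, which may be technical. Genes were described if they had at least 10 normalized counts in at least 2 of the 5 libraries, which 12702 genes did. A normalized count is the number of reads of a gene divided by 1 factor per library.

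Nkx6-1 is a homeodomain transcription factor that acts mainly as a repressor. In the embryonic neural tube it is made in ventral progenitors under the influence of Sonic hedgehog and sets the border between domains that give different neurons, and it remains in glia of the ventral spinal cord. Spinal astrocytes clear glutamate, GABA and potassium around synapses, move water through aquaporin channels, are joined by gap junctions and supply neurons with lipids and lactate.

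Depth was 7592796, 9054934 and 2246412 reads in genes in control replicates 1, 2 and 3, and 5078344 and 4147737 in cKO replicates 1 and 3. Between 13611 and 15070 genes had a read. The labels name no molecular identifiers, and the limits given for a count of 0 cover counting error only. The ribosomal precursor Rn45s took 27.4%, 21.2% and 38.1% of the reads in the controls and 25.2% and 40.6% in the cKO libraries. Control 3 was thus the shallowest of the 5 and, with cKO 3, one of 2 libraries rich in ribosomal precursor.

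Nkx6-1 itself was close to the limit of detection and did not separate the labels. It had 3, 9 and 2 reads in the controls (1.51, 3.75 and 4.29 normalized counts), 0 reads in cKO 1, where a count of 0 allows up to 2.56 normalized counts, and 18 reads in cKO 3 (25.6 normalized counts). The library labelled male cKO replicate 3 therefore held more Nkx6-1 than any of the controls. It is written cKO 3 below, and it goes against its label on this gene wherever a direction is drawn from it. An exact two-sided permutation test over the 5 libraries gave p = 0.8, and 0.2 is the smallest p that 2 against 3 can give. Reads outside a removed segment, which the labels do not name, would not check the label. The Y-linked genes Ddx3y, Eif2s3y, Kdm5d and Uty had 59 to 1358 reads each in all 5 libraries, and the X-inactivation RNA Xist had 0, 0 and 2 reads in the controls and 15 and 0 in the cKO libraries. By contrast, 3546 Xist reads and 0 reads of those Y-linked genes were counted in the left-out library, labelled male cKO replicate 2. Its chi-square against female cKO replicate 2, divided by the degrees of freedom and taken where the 2 together had 20 reads or more, was 1.06, close to sampling noise, and the other 65 pairs of libraries lay between 15.2 and 145. It was treated as a second deposit of that female library and not as a male replicate.

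No gene passed an adjusted p of 0.05 in the limma test on log2(value + 1), 0 of 12702 genes or 0.0%, so the differences below are given as values and not as changes. Before adjustment, 687 genes were higher in cKO (5.41% of those tested) and 657 lower (5.17%) at a limma p under 0.05. In 1660 genes (13.1%) both cKO values lay above all 3 control values, and in 1762 (13.9%) both lay below. The edgeR quasi-likelihood test on the recovered reads also called 0 genes (0.0%) after adjustment, with 663 higher and 643 lower at an unadjusted p under 0.05, while 174 genes (1.37%) passed in DESeq2, 105 of them higher in cKO and 69 lower. Leaving out control 3 brought 54 genes past the limma threshold, 44 of them higher in cKO. Scaling decided part of the balance. With Rn45s left out and totals made equal, the median log2 fold change of all genes moved from -0.03 to -0.22, the genes at an unadjusted limma p under 0.05 split into 392 higher and 995 lower, and the genes whose groups did not overlap split into 1100 higher and 2509 lower.

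**Figure D1:**
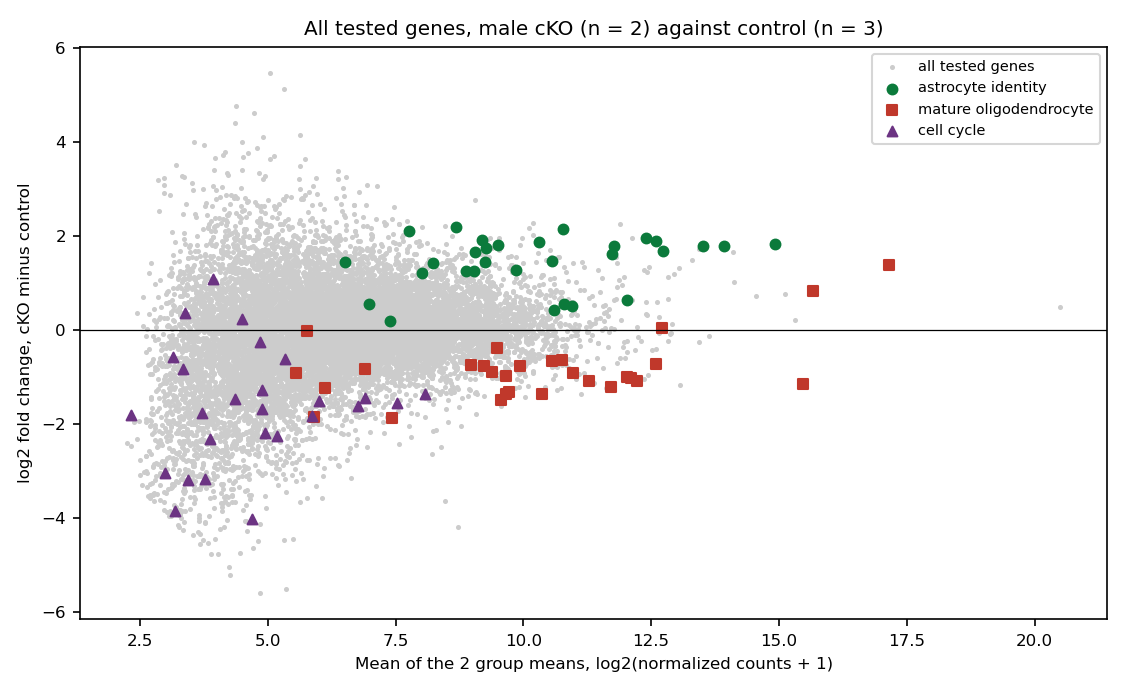
Log2 fold change of the male cKO libraries over the controls (vertical axis) against the mean of the 2 group means in normalized counts on a log2 scale (horizontal axis), 1 grey point for each of 12702 tested genes. The 30 astrocyte identity genes (green) all lie above 0, most of the 29 mature oligodendrocyte genes (red) lie below 0, and most of the 26 tested cell cycle genes (purple) lie below 0 at low levels.

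Among the genes with a mean of at least 50 normalized counts and groups that did not overlap, 5 of the 12 higher ones with the smallest limma p were on the list of 30 astrocyte identity genes, which was chosen with these results known. The smallest p belonged to Elovl2, the elongase of very long polyunsaturated fatty acids on the way to docosahexaenoic acid. It had 107, 103 and 216 normalized counts in the controls and 1004 and 834 in cKO. The group means differed 6.47-fold, by 2.77 ± 0.42 (SE) on the log2 scale, with an adjusted limma p of 0.235 over all genes. That adjusted value was shared by the 12 genes, and by 11 of the 12 lower ones described next.

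Several of these genes serve transport. Slc6a11 encodes the astrocytic GABA transporter GAT3 and had 1281, 754 and 2214 normalized counts in the controls against 6395 and 5952 in cKO, a log2 difference of 2.26 ± 0.40 (SE). Slc41a1, a magnesium transporter, had 279, 415 and 544 against 2038 and 1563, a difference of 2.16 ± 0.35. The water channel gene Aqp4 had 2007, 1412 and 3721 against 8529 and 8450, a difference of 1.95 ± 0.38. Atp1b2, a beta subunit of the sodium pump, differed by 1.80 ± 0.37. In each of these genes control 3 was the highest control and still lay below both cKO libraries.

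Gja1, which encodes connexin 43, the main astrocyte gap junction protein, had 653, 374 and 1037 normalized counts in the controls and 2984 and 2687 in cKO (log2 difference 2.16 ± 0.39, SE). Aldoc, the aldolase isoform of astrocytes, differed by 1.69 ± 0.34, and Pla2g7, the secreted hydrolase that inactivates platelet activating factor, by 2.01 ± 0.42. Scg3, secretogranin III of dense core vesicles, had 696, 559 and 827 against 2107 and 2362, a difference of 1.70 ± 0.31. The remaining 2 were low in controls. Heph, which encodes the ferroxidase hephaestin that helps iron leave cells, had 23.6, 23.4 and 27.9 normalized counts in the controls and 203 and 234 in cKO, 8.76-fold more by the means. Wnt7a, a secreted Wnt ligand, had 21.6, 34.6 and 19.3 against 214 and 174, 7.71-fold more.

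In the left-out library, labelled male cKO replicate 2, the values of the genes described here lay above all 3 male controls as well, from 81.0 for Wnt7a and 87.2 for Heph to 7780 for Aqp4 and 15407 for Atp1b2. That library matched a female one, and values above the male controls were not limited to cKO. Female controls 1, 2 and 3 held 7699, 1334 and 6503 of Aqp4 and 203, 74.6 and 118 of Heph. By fold change alone, the 8 largest increases at that level also took in Trim12a (3.37 ± 1.13), Lysmd2 (3.25 ± 1.07), Lpar4 (3.06 ± 0.86), Abhd10 (3.03 ± 0.72) and Plscr2 (2.85 ± 0.70), on the log2 scale with SE. Lysmd2 rested unevenly on the libraries, with 30.7 normalized counts in cKO 1 and 313 in cKO 3 against 21.4 in control 3, and its difference was 1.59 without cKO 3 and 4.90 without cKO 1. Lpar4, a receptor of lysophosphatidic acid, had 48.2, 5.84 and 66.4 in the controls against 275 and 202, but 27.0 in the left-out library, inside the control range. Trim12a has close paralogs, which makes its count uncertain.

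**Figure D2:**
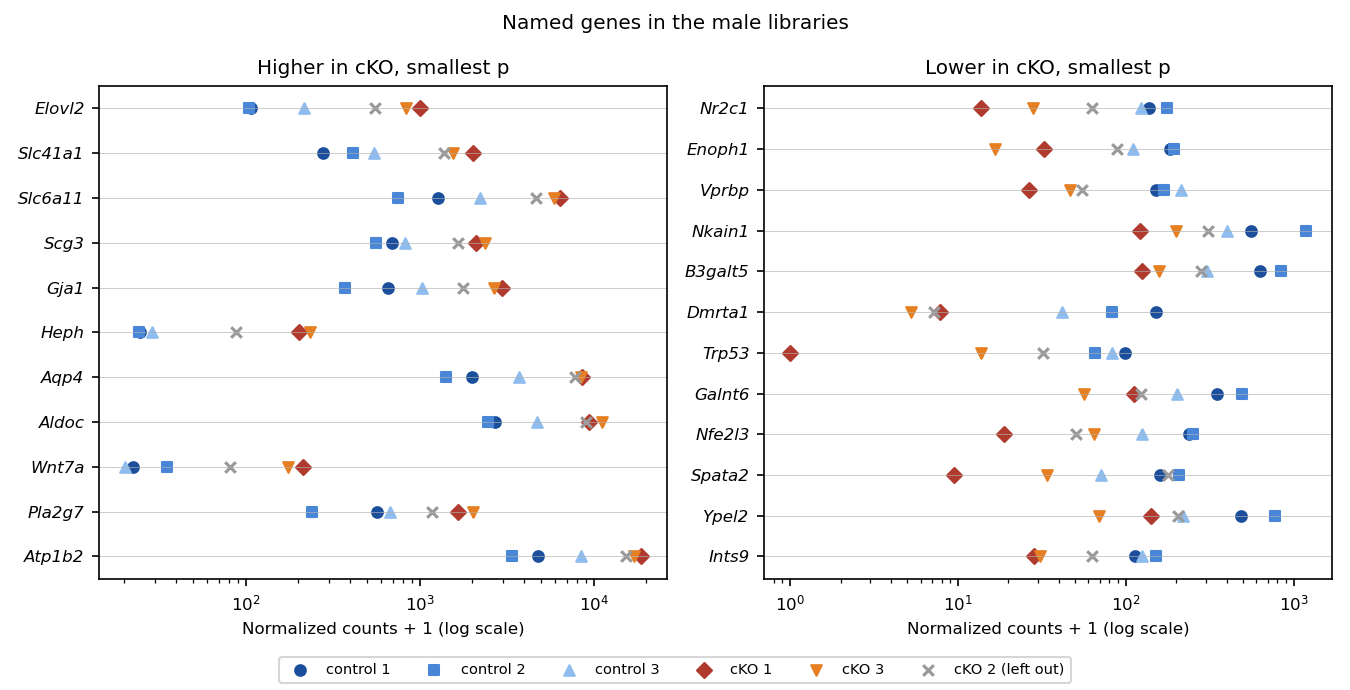
Normalized counts + 1 (log axis) of genes higher (left, 11 genes) and lower (right, 12 genes) in male cKO with the smallest limma p, 1 symbol per library. Blue symbols are the 3 controls, red and orange the 2 cKO libraries in the fit, and the grey cross is the left-out library labelled male cKO replicate 2. No blue symbol overlaps the range of the red and orange ones, by the rule that chose the genes.

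Of the 12 lower genes with the smallest limma p, 0 were on the astrocyte identity list. The first was Nr2c1, which encodes the orphan nuclear receptor TR2: 136, 175 and 122 normalized counts in the controls and 12.8 and 27.1 in cKO, a log2 difference of -2.87 ± 0.60 (SE). Enoph1, an enzyme of methionine salvage, had 182, 192 and 109 against 31.6 and 15.7, a difference of -2.75 ± 0.58. Vprbp, a substrate receptor of a cullin ubiquitin ligase, had 151, 168 and 212 against 25.6 and 45.6, and the Integrator subunit gene Ints9 had 113, 151 and 124 against 27.3 and 29.9. Its adjusted limma p was 0.246.

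Other transcription factor genes were among the 12. Dmrta1, a DM domain transcription factor of neural progenitors, had 151, 81.7 and 40.7 normalized counts in the controls and 6.83 and 4.27 in cKO (8 and 3 reads). The log2 difference was -3.65 ± 0.84 (SE), and the left-out library held 6.23. Female cKO replicates 1, 2 and 3 held 244, 3.86 and 47.7. Trp53, which encodes p53, had 98.5, 64.2 and 81.4 against 0 and 12.8 (9 reads), and the 0 in cKO 1 allows up to 2.56. Its difference of -4.45 ± 1.08 was the lowest of the genes at that level with separate groups, and it moved from -2.55 without cKO 1 to -6.34 without cKO 3. Nfe2l3, a basic leucine zipper factor, had 237, 250 and 124 against 17.9 and 64.1. The left-out library held 31.1 of Trp53 and 49.8 of Nfe2l3, both below the male controls.

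B3galt5 and Galnt6, glycosyltransferases, differed by -1.95 ± 0.45 and -2.03 ± 0.50 on the log2 scale (SE). Nkain1, whose product interacts with the sodium pump, had 558, 1189 and 403 normalized counts in the controls and 121 and 198 in cKO. Ypel2 had 486, 779 and 219 against 141 and 68.4. Spata2, an adaptor in tumour necrosis factor receptor signalling, had 160, 208 and 70.7 against 8.53 and 32.8, but 179 in the left-out library, inside the range of the male controls. The largest decreases by fold alone also included Gpr176, Cd180, Zfp2 and H2afx, at -3.32 ± 1.13, -3.20 ± 1.00, -2.95 ± 0.83 and -2.92 ± 0.84. Single cKO libraries carried much of these values: leaving out 1 library at a time, Gpr176 ran from -5.58 to -1.07, Cd180 from -4.93 to -1.47 and H2afx from -4.37 to -1.47. The left-out library lay below the controls for Gpr176 (33.2) and Cd180 (35.3), just above them for Zfp2 (110) and among them for H2afx (89.3).

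Promoters of the 24 genes were searched for TTAATT on either strand (its other strand reads AATTAA), a motif that holds the TAAT core bound by many homeodomain proteins. RefSeq windows of 300 bases, 250 before and 50 after the gene start (GRCm38.p6), were found for 18 of the 24 genes, 23 windows in all, and 1 held the motif, that of Spata2. Among all 32851 windows of that length, 11.3% held it. The 2 windows printed are the gene with the smallest p and the gene with the match, each in lower case with the motif in capitals, 5′ to 3′ along the gene. Elovl2 lies on the minus strand of chromosome 13 (41182381 to 41220405, mm10) with its window at chr13:41220354-41220653, and Spata2 on the minus strand of chromosome 2 (167481133 to 167492887) with its window at chr2:167492825-167493124.
Elovl2: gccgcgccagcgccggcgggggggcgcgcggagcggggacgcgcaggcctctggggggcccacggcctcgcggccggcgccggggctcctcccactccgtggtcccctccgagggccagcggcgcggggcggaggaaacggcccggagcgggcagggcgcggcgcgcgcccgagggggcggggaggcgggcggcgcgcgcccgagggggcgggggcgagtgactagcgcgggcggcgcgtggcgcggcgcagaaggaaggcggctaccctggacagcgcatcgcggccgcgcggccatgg
Spata2: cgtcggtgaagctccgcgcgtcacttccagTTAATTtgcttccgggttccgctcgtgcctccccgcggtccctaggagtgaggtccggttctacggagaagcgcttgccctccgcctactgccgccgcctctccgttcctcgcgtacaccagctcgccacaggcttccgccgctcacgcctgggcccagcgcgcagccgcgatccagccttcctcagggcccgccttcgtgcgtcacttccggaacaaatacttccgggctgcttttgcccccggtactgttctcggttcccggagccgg
The Elovl2 window was rich in G and C and held no TTAATT, and the Spata2 window held 1. A match is a string of letters and not a site of binding.

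Markers of astrocytes were higher as a list. All 30 astrocyte identity genes had a higher mean log2 value in cKO, against 48.7% of all tested genes, and in 24 of the 30 the groups did not overlap with cKO above, against 13.1% of all genes. None passed adjustment in limma, and DESeq2 called 16 of the 30, against 1.37% of all tested genes. The median log2 fold change was 1.64, against -0.03 over all genes, and 1.97 without control 3. The summed level of the list was 44203, 34524 and 79453 normalized counts in the controls and 147165 and 165141 in cKO, that is 1.16%, 0.914% and 1.65% of the reads against 3.40% and 2.79%. The left-out library held 144504. In bulk RNA, fewer cells of a type and less RNA per cell cannot be told apart.

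The members differed in size of effect. Mlc1, a membrane protein of astrocyte end feet, had 73.9, 111 and 330 normalized counts in the controls and 597 and 698 in cKO, the largest difference of the list at 2.20 ± 0.54 (SE). Slc1a2, the main glutamate transporter, had 11483, 8273 and 24541 against 41081 and 53991 (1.83 ± 0.42). The gene behind the reporter was not among the separated ones: Aldh1l1 had 157, 32.1 and 156 normalized counts against 131 and 142, so that both cKO values lay within the range of the controls, and 330 in the left-out library. Gfap, the intermediate filament of reactive astrocytes, overlapped too, with 181, 249 and 551 against 506 and 1265. Reactive astrocyte genes were higher in 17 of 22 cases (median 0.61, 0.17 without cKO 1 and 0.95 without cKO 3). Of these 22, 3 lay apart above and 1 below, a share above near the 13.1% of all tested genes.

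Of 18 tested genes of GABA and glycine handling 16 were higher, 7 with groups apart above and 1 below, at a median of 0.97. Over all tested genes, 48.7% were higher, 13.1% lay apart above and 13.9% below. Besides Slc6a11, Gabbr1, a subunit of the metabotropic GABA receptor, had 308, 322 and 326 normalized counts in the controls against 709 and 983 in cKO, and the receptor subunit gene Gabrb1 had 106, 37.1 and 107 against 236 and 399. The 3 control values of Gabbr1 were nearly equal, so control 3 did not stand apart there. In the list for potassium, water and sodium, 16 of 22 were higher and 12 lay apart above, with a median of 0.83. Slc4a4, the sodium bicarbonate cotransporter, had 2328, 1556 and 4653 against 10200 and 8983, while Kcnj10, the inward rectifier that clears potassium, differed by 0.60 ± 0.30 only, from 4216, 5959 and 4880 to 7487 and 7618.

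Uptake of glutamate and neutral amino acids was mixed, with 10 of 16 genes higher and a median of 0.36, which was 0.16 without control 3 and 1.37 without cKO 3. Slc7a11, the cystine and glutamate exchanger, had 145, 76.3 and 144 normalized counts against 523 and 346, and Slc25a18, a mitochondrial glutamate carrier, had 82.9, 39.6 and 139 against 257 and 437. Of 7 tested connexin and pannexin genes 2 were higher, the astrocyte connexins Gja1 and Gjb6. Gjb6 had 345, 148 and 589 against 1140 and 1047. The oligodendrocyte connexin gene Gjb1 was lower, with 239, 463 and 122 against 41.0 and 99.7.

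In the list for glycolysis and glycogen, 25 of 27 tested genes were higher and 19 lay apart above (median 0.58), against 48.7% and 13.1% of all tested genes. The glycogen phosphorylases Pygb (358, 262 and 433 normalized counts against 761 and 896) and Pygm (92.0, 94.7 and 161 against 261 and 282) differed by 1.26 ± 0.35 and 1.27 ± 0.45 (SE), and glycogen synthase Gys1 by 1.57 ± 0.68 from low levels. Pkm, pyruvate kinase, had 455, 352 and 364 against 672 and 671. Slc16a4, a monocarboxylate transporter family member, had 39.7, 31.7 and 57.9 against 224 and 177, and 274 in the left-out library.

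Genes of the respiratory chain encoded in the nucleus were higher in 33 of 37 cases at a median of 0.50 (0.32 without cKO 3), with 11 apart above. Cytosolic ribosomal protein genes were higher in 39 of 44 cases at a median of 0.35, which was -0.0095 without cKO 3 and 0.68 without cKO 1. Of these 44, 6 lay apart above, near the 13.1% of all tested genes. Of 28 mitochondrial ribosomal protein genes 11 were higher (median -0.20), and 1 library set the sign, since the median was 0.16 without cKO 1 and -0.64 without cKO 3. Mrps31 had 70.3, 40.0 and 51.4 normalized counts against 4.27 and 7.12.

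Lipid genes were mixed. Acyl-CoA synthetases of astrocytes were higher: Acsl6 had 300, 168 and 501 normalized counts against 1119 and 1183, Acsl3 had 1192, 1237 and 1547 against 3089 and 3632, and Acsbg1 had 202, 137 and 467 against 807 and 979. The apolipoprotein genes Clu (676, 572 and 1033 against 1798 and 2630) and Apoe (1849, 1441 and 2692 against 4353 and 6154) were higher as well. The lipid transporters Abca2 and Abcg1 were lower, by -1.28 ± 0.39 and -1.57 ± 0.49 on the log2 scale (SE). Among 23 cholesterol synthesis genes, 9 were higher and the median was -0.12. Fdps, farnesyl diphosphate synthase, had 119, 210 and 85.7 against 35.0 and 52.7.

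Metal handling gave 16 of 24 genes higher and a median of 0.51 (0.28 without cKO 1), led by Heph. Slc39a12, a zinc importer of astrocytes, had 628, 243 and 937 normalized counts against 2121 and 1731, and the metallothionein Mt1 had 272, 183 and 482 against 697 and 1342. Among lysosomal enzymes, 13 of 27 were higher at a median of -0.06, and 1 gene was unlike the rest. Naglu, the glucosaminidase that degrades heparan sulfate, had 115, 78 and 8 reads in the controls (57.8, 32.5 and 17.1 normalized counts) and 0 in both cKO libraries and in the left-out library. Against a floor of 3 counts per library it was at least 10.5-fold lower. Naglu passed the minimum level through the controls alone, and its size rests on the cKO zeros, so its place in the list is no support of its own.

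Of 8 signalling lists, 5 had a median above 0 and 3 below. Beside the counts for each list, 48.7% of all tested genes were higher and 13.1% lay apart above. In the Notch list, where cell surface ligands act on receptors of neighbouring cells and induce Hes and Hey repressors, 13 of 19 tested genes were higher and 8 lay apart above (median 0.42, and 0.54 to 0.91 leaving out 1 library). The target Hes5 had 0, 5 and 0 reads in the controls (2.09 normalized counts in control 2) and 72 and 46 reads in cKO (61.5 and 65.5 normalized counts). The counts of 0 allow up to 1.51 normalized counts in control 1 and 6.43 in control 3. The log2 difference of Hes5, 5.47 ± 1.41, was the highest of all tested genes, and the left-out library held 18.7 normalized counts. Hes5 passed the minimum level through the cKO libraries alone, and its size rests on the control zeros, so its rank is no support of its own. Hey1 had 55.8, 57.1 and 68.6 against 119 and 251, Hey2 had 48.2, 31.7 and 55.7 against 88.8 and 235, and the receptor gene Notch2 had 237, 123 and 289 against 335 and 641. Hes1 had 49.7, 15.8 and 70.7 against 89.6 and 89.8.

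The Hedgehog list, the pathway that induces Nkx6-1 in the embryo, had 10 of 12 tested genes higher and 5 apart above, with a median of 1.04. Among all tested genes, 48.7% were higher and 13.1% lay apart above. Its receptor components Ptch1 (436, 487 and 883 normalized counts against 1359 and 1130) and Smo (92.5, 87.2 and 184 against 260 and 339) and its transcription factors Gli2 (17.1, 36.7 and 51.4 against 95.6 and 107) and Gli3 (87.9, 19.6 and 118 against 397 and 207) lay apart. Shh itself was not tested, being under the minimum level. For BMP signalling and the Id factors, 14 of 20 were higher and 9 lay apart above (median 0.50, and 0.84 without cKO 3), among them the receptor Bmpr1b, the signal transducer Smad9 and Id4. Smad9 had 69.3, 48.4 and 77.2 against 136 and 312.

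In the Wnt list 17 of 22 were higher and 10 lay apart above, against 48.7% and 13.1% of all tested genes, with a median of 0.58 (0.95 without cKO 3). Besides Wnt7a, the related ligand Wnt7b had 33.7, 7.92 and 64.3 normalized counts against 135 and 82.6, and the receptor Fzd1 had 121, 74.7 and 146 against 485 and 239. In the FGF list 10 of 16 were higher, and the median of 0.22 was -0.022 without control 3. The FGF receptors went in opposite directions: Fgfr3, a marker of astrocytes, had 677, 332 and 667 against 1324 and 1264, and Fgfr2, which oligodendrocytes make, had 1271, 1712 and 1033 against 788 and 477.

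Guidance genes were mixed, and the sign of their 3 list medians turned without cKO 3. Reln, the secreted protein reelin, which together with Slit1 marks positional classes of white matter astrocytes in the embryonic cord, had 395, 165 and 319 normalized counts against 960 and 751, and 255 in the left-out library. Slit2 had 72.4, 93.4 and 109 against 248 and 209, and Robo2, a Slit receptor, 45.2, 30.0 and 154 against 246 and 188. Of 16 tested genes of the Slit, Robo, netrin and reelin list 7 were higher, at a median of -0.14 that became 1.13 without cKO 3 and -0.54 without cKO 1. Of 16 ephrin and Eph genes 7 were higher (median -0.22, and 0.45 without cKO 3), as were 12 of 26 semaphorin, plexin and neuropilin genes (median -0.14, and 0.49 without cKO 3). Epha4, an ephrin receptor of astrocytes, had 140, 138 and 184 against 536 and 449, while the ligand Efnb3 had 690, 1156 and 328 against 235 and 247 and the receptor Ephb1 had 346, 508 and 341 against 238 and 155. Sema4a, a semaphorin, had 20.6, 31.7 and 27.9 against 129 and 107. Sparcl1 and Sparc, secreted factors with opposite actions on synapse formation, were both higher, by 1.66 ± 0.36 and 1.23 ± 0.33 on the log2 scale (SE).

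Transcription factors of glia were led by Sox9, which keeps astrocyte identity, with 222, 174 and 381 normalized counts in the controls against 1010 and 591, but 316 in the left-out library, inside the control range. Rorb had 246, 213 and 652 against 1442 and 771. Of the 30 patterning homeobox and progenitor factors, 12 passed the minimum level. Nkx2-9, a ventral homeobox gene related to Nkx6-1, had 331, 400 and 135 against 114 and 74.1, and Nkx6-2, its closest relative, had 74.9, 59.2 and 47.1 against 34.1 and 28.5, differences of -1.50 ± 0.52 and -0.91 ± 0.64 (SE). Irx2, an Iroquois homeobox gene, was higher by 1.91 ± 1.07. The differences of Irx2 and Nkx6-2 were each less than 2 SE. The Hox genes, which record position along the cord, had 10 of 22 higher and a median of -0.05, and Hoxc6 had 21.1, 26.3 and 40.7 against 109 and 108.

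**Figure D3:**
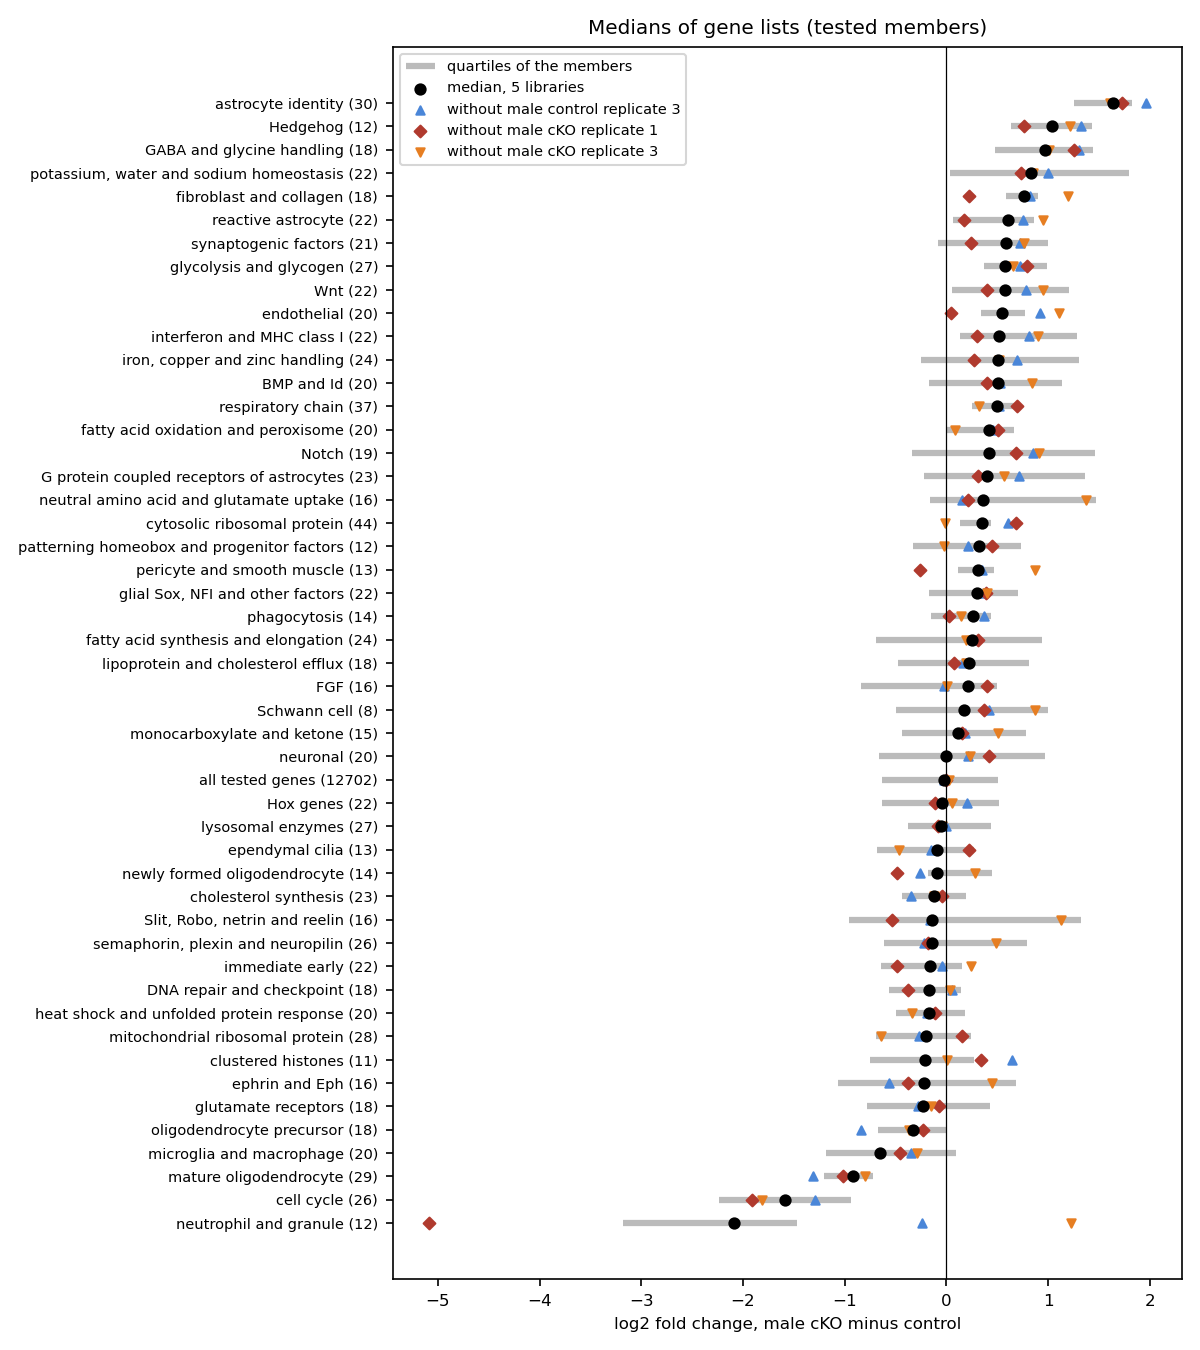
Median log2 fold change, male cKO minus control, of gene lists and of all tested genes (number of tested members in brackets); grey bars span the quartiles of the members, and coloured symbols are medians without control replicate 3, cKO replicate 1 or cKO replicate 3. The astrocyte list sits at 1.64 and stays between 1.61 and 1.97 in these 3 fits, whereas the neutrophil and granule list moves from -5.09 to 1.23.

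Most mature oligodendrocyte genes, whose transcripts the sort for green astrocytes did not remove, were lower in cKO, but their summed levels overlapped. The list summed to 205200, 252487 and 272697 normalized counts in the controls and 234478 and 434719 in cKO. Of 29 mature oligodendrocyte genes, all with reads in every library, 26 had a lower mean in cKO, 15 lay apart below (13.9% of all genes did) and 1 above, and the median was -0.92. Mag, an adhesion protein of the inner myelin membrane, had 1198, 1810 and 596 normalized counts in the controls and 447 and 403 in cKO, and Mog, on the outer surface, 1116, 1828 and 748 against 474 and 446. Hapln2, Ugt8a and Ermn differed by -1.49 ± 0.46, -1.21 ± 0.37 and -1.08 ± 0.37 (log2, SE). Control 2 was the highest of the 5 libraries in each of these 5 genes.

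The exceptions were Mbp, Apod and Mobp, the last with a log2 difference of 0.04. Apod, a secreted lipid carrier, had 48687, 26569 and 37923 normalized counts against 78259 and 53910, but 7867 in the left-out library. Mbp, the cytoplasmic myelin protein whose mRNA is carried into the myelin sheath, had 44774, 43566 and 161650 normalized counts in the controls and 99980 and 317965 in cKO, with overlapping groups. Bcas1, a marker of newly formed oligodendrocytes, had 3124, 2500 and 11573 against 7621 and 20976. Both genes were highest in cKO 3, next in control 3, then in cKO 1, and the left-out library held 405303 and 31381. The Rn45s share was also highest in cKO 3 and next in control 3, but nearly equal in cKO 1 and control 1, and its part in the Mbp and Bcas1 values was not tested.

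**Figure D4:**
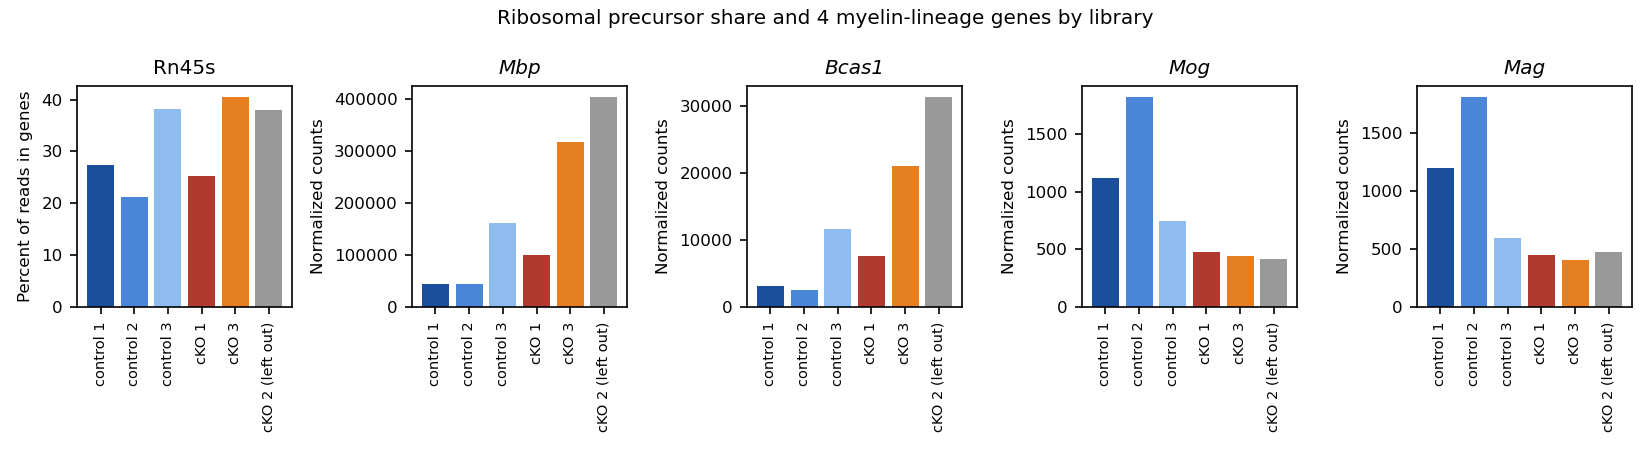
Share of reads in the ribosomal precursor Rn45s (percent of reads in genes) and normalized counts of Mbp, Bcas1, Mog and Mag, 1 bar per library from 0 (blue controls, red and orange cKO, grey the left-out library labelled male cKO replicate 2). Mbp and Bcas1 are highest in the libraries with the largest Rn45s share, and Mog and Mag are highest in control 2, which has the smallest.

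Cell cycle genes were lower. Of the 35 listed, 26 passed the minimum level; a member could pass through the controls alone, so the 26 do not stand for the list. Of these, 23 were lower, 10 lay apart below (13.9% of all tested genes did) and 0 above, and the median was -1.58. Tpx2, a spindle assembly factor, had 48.7, 16.7 and 79.3 normalized counts in the controls and 1.71 and 1.42 in cKO (2 reads and 1 read), and the left-out library held 8.30. The replication genes Mcm2 (42.2, 74.2 and 60.0 against 12.8 and 9.97) and Pcna (263, 231 and 298 against 49.5 and 158) and the condensin gene Ncapd3 (200, 143 and 144 against 37.6 and 71.2) lay apart below. Mki67 did not, with 324, 58.0 and 851 against 44.4 and 214. The summed level of the whole list was 1586, 882 and 2750 in the controls and 668 and 663 in cKO, so control 3 held the most. Without it the median was -1.29. Plk1, a mitotic kinase, had 7.03, 11.3 and 30.0 normalized counts in the controls and 0 in both cKO libraries.

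Control 3 also held the most granulocyte transcripts, but the pattern was not one of controls against knockouts. The 18 neutrophil and granule genes summed to 1484, 186 and 6903 normalized counts in the controls, 1925 in cKO 1 and 0 in cKO 3, and 62.3 in the left-out library. S100a8, a calcium-binding protein of neutrophils, had 185, 0 and 1425 against 105 and 0, and the granule enzyme Mpo had 513, 126 and 1112 against 527 and 0. Mmp8 was highest in cKO 1, at 329. The median over the 12 tested members, -2.09, ran from -5.09 without cKO 1 to 1.23 without cKO 3, so this list gave no direction of its own. The globin genes Hba-a1, Hba-a2, Hbb-bs and Hbb-bt were listed at 0 in all of these libraries, so red cell RNA was not seen through them. Of the 18 red cell genes with an entry, 13 were under the minimum level, and a member could pass it through the controls alone. The 5 tested had a lower mean in cKO, at a median of -0.84. In 2 of them the groups lay apart below, where 13.9% of all tested genes did. The whole red cell list summed to 1072, 1460 and 1144 normalized counts in the controls against 775 and 1090. Whether granulocyte or red cell RNA had a part in the cell cycle values was not tested; without control 3, Tpx2 differed by -3.53 and Mcm2 by -2.21 on the log2 scale, against -4.01 and -2.24 with it.

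**Figure D5:**
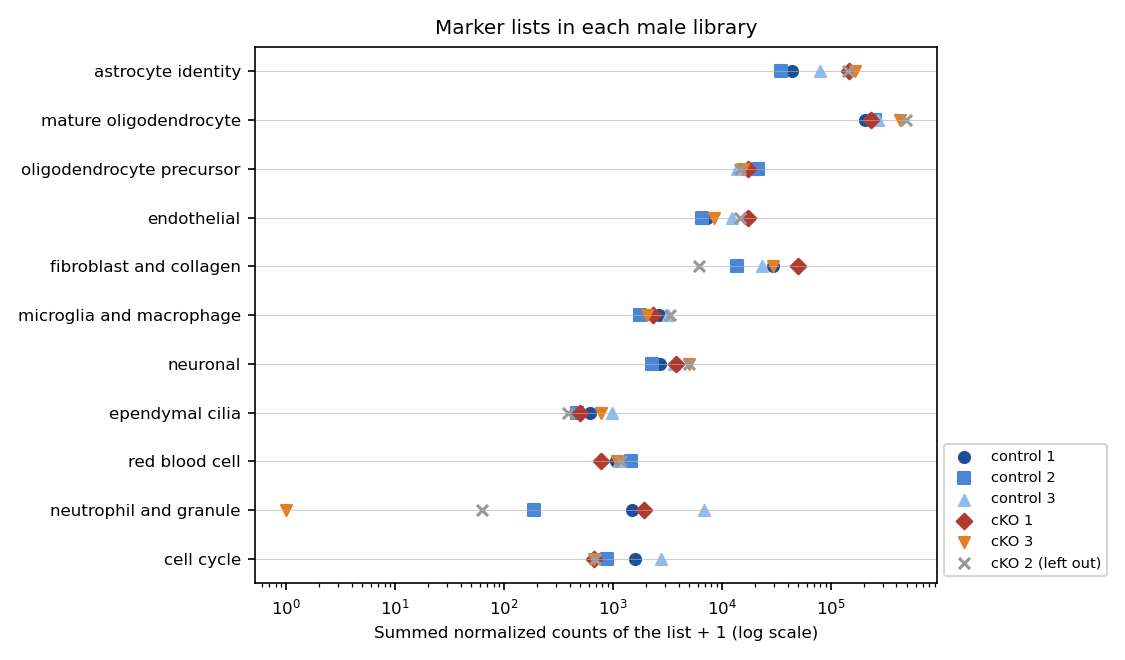
Summed normalized counts + 1 (log axis) of 10 marker lists of cell types and of the cell cycle list in each male library, 1 symbol per library as in the plot of named genes. The astrocyte sum separates cKO (147165 and 165141) from controls (34524 to 79453). So do the neuronal sum (3776 and 4994 against 2272 to 3654) and, narrowly, the fibroblast sum (49889 and 29310 against 13890 to 29284). The cell cycle sum is lower in cKO (668 and 663 against 882 to 2750). The granule sum runs from 0 in cKO 3 to 6903 in control 3, and the sums of both oligodendrocyte lists and of endothelial, microglial, ependymal and red cell genes overlap between groups.

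Transcripts of other cell types were present in all libraries. Of 20 microglia and macrophage genes 14 were lower and 5 lay apart below, against 13.9% of all tested genes (median -0.65, -0.28 without cKO 3). Among them, Ly86 had 104, 73.8 and 87.9 normalized counts against 29.9 and 17.1 but 179 in the left-out library. Endothelial genes were higher in 16 of 20 cases (median 0.55, 0.044 without cKO 1 and 1.11 without cKO 3), with 3 apart above, near the 13.1% of all tested genes. Fibroblast and collagen genes were higher in 17 of 18 with 6 apart above (median 0.77, and 0.23 without cKO 1), led by the growth factor gene Igf2, which had 408, 630 and 594 against 1912 and 1091. Their summed level was 29284, 13890 and 23538 normalized counts in the controls against 49889 and 29310, and 6120 in the left-out library. Oligodendrocyte precursor genes had 13 of 18 lower with 1 apart below (median -0.32, -0.069 without control 2 and -0.84 without control 3). Of the 24 neuronal genes 20 were tested, 10 in each direction, at a median of -0.0062, and the whole list summed to 2718, 2272 and 3654 against 3776 and 4994. Snap25, a synaptic vesicle fusion protein, was higher (377, 219 and 836 against 1176 and 1788), and the neuronal tubulin Tubb3 was lower (166, 243 and 60.0 against 16.2 and 48.4). The part of these cells in the astrocyte values was not tested.

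The same contrast in females did not give the astrocyte pattern. In 6 female libraries, 22 of the 30 astrocyte genes were higher in cKO, but the median was 0.15. The summed level of the list was 132321, 33486 and 130182 normalized counts in female controls 1, 2 and 3, and 70982, 141341 and 76648 in female cKO. The male cKO sums of 147165 and 165141 were thus near those of female controls 1 and 3, and the male controls lay below them. The difference of the knockout effect, female minus male, was tested in 1 limma model over 11 libraries: 0 of 13815 genes (0.0%) passed an adjusted p of 0.05, and 775 (5.61%) had an unadjusted p under 0.05. In the astrocyte list 9 of 30 were in that count, with a median difference of -1.46 on the log2 scale. Female cKO replicate 3 held 19 Nkx6-1 reads and female cKO replicates 1 and 2 held 0, against 19, 7 and 12 in female controls.

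Single genes differed most between the sexes in Heph, Nr2c1, Zdhhc15, Oxa1l, Orai1 and Sox9, the 6 with the smallest p among genes that met the level rule. Heph had 203, 74.6 and 118 normalized counts in female controls and 20.2, 65.6 and 23.9 in female cKO, the reverse of the male order. Its difference of the effect was -4.98 ± 0.89 (SE) with an adjusted limma p of 0.162. Nr2c1 differed by 3.35 ± 0.80 and Zdhhc15, a palmitoyltransferase gene on the X chromosome, by 4.69 ± 1.13, each with an adjusted limma p of 0.89. In males Zdhhc15 had 42.2, 73.0 and 107 normalized counts in the controls and 3.41 and 8.55 in cKO. Orai1, the calcium channel of store-operated entry, had 38.2, 96.8 and 25.7 in the male controls and 0.853 and 2.85 in male cKO (1 read and 2 reads), and 52.1 to 99.9 in the 6 female libraries.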

How the data were processed

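RNA of sorted Aldh1l1-GFP spinal cord cells was extracted with a micro-scale column kit, and Trio RNA-seq V2 libraries from 10 ng of total RNA were sequenced in paired-end mode, per the labels' protocols. The molecule is labelled polyA RNA. Tools named in the submitters' processing notes, without role or order, are STAR 2.5.0a, DESeq2 1.20.0, FastQC 0.10.1 and MultiQC 0.9, with build mm10. Annotation, counting tool and use of strand are not given in the sources used here, so genes that overlap a neighbour, such as Heph, Aqp4, Pla2g7, Galnt6, Spata2 and Hoxc6, have uncertain counts.

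The deposited table holds, for 24421 entries and 12 libraries, a normalized signal that the authors obtained from gene counts and 1 factor per library: 100% of the values gave whole reads, to within 0.01 reads, when divided by the smallest step of their library, so reads were recovered from them. Entries turned into dates by a spreadsheet (27) were tested but not named.

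Values were tested as log2(value + 1) with limma 3.58.1 (intensity trend, robust variance, no replicate block) in R 4.3.3 over genes with at least 10 normalized counts in at least 2 of the 5 libraries, with Benjamini-Hochberg adjustment over 12702 genes and a threshold of 0.05. Such fold changes understate changes of low genes. The plan was for raw counts to go to edgeR; the table holds normalized values, so limma was the test, and edgeR 4.0.16 and DESeq2 1.42.0 were run on the recovered reads as alternatives. The effect in females minus that in males was tested in 1 model of 11 libraries. The limma and edgeR fits were also run on simulated reads with a fixed spread, which does not show how they perform on these libraries. The exact permutation test used scipy 1.17.1.

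Named genes had a mean of at least 50 normalized counts, separate groups and a symbol that is no predicted gene or clone: the 12 in each direction with the smallest p, the 8 with the largest fold, up to 4 per list with the smallest p, and reference genes. Of the genes this rule names, 3 are not reported here. Other genes, Mlc1, Kcnj10, Gys1, Pkm, Hes1, Mobp, Apod, Ermn, Plk1, Mki67 and S100a8, were chosen after their values were seen. The libraries, lists and genes were all chosen with earlier results of these data known. Lists share members, were matched by symbol, and are described by counts and medians without a test. Coordinates and overlaps are from GENCODE for GRCm38 and promoters from RefSeq.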

Additional observations from a re-analysis of the deposited data

Results flagged for a closer look

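Heph was separate in both sexes in opposite directions. Its values were 23.6, 23.4 and 27.9 normalized counts in male controls against 203 and 234 in male cKO, and 203, 74.6 and 118 in female controls against 20.2, 65.6 and 23.9 in female cKO. The female minus male difference of the effect was -4.98 on the log2 scale, with an adjusted limma p of 0.162, so it did not pass over all genes. Without female cKO replicate 2 it was the 1 gene that passed. Heph overlaps Hsf3 on the other strand.

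Oxa1l, which encodes an inserter of proteins into the inner mitochondrial membrane, was separate in both sexes in opposite directions too. It had 91.5, 42.5 and 103 normalized counts in male controls against 215 and 151 in male cKO, and 141, 73.5 and 162 in female controls against 18.8, 30.9 and 37.3 in female cKO. The difference of -3.33 on the log2 scale had an adjusted limma p of 0.89.

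The library labelled male cKO replicate 2, which was left out of the main comparison and added to it only as an alternative, held 3546 Xist reads, where the male controls held 0, 0 and 2.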

How the results depend on the processing

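The count of genes at an adjusted p under 0.05 was 0 in the main limma test and stayed 0 with other pseudocounts and filters, edgeR, both other scalings, no robust variance and the spread of 11 libraries. It was 174 with DESeq2, 11 with the left-out library added to the cKO group (all higher, 6 of them astrocyte list genes) and 52 with a replicate block (48 higher). Leaving out 1 library at a time gave 0 to 54 calls, the 54 without control 3, 5 without cKO 3 and 2 without cKO 1. The block rests on 1 residual degree of freedom, and same-numbered libraries had correlations of deviations of 0.04 and -0.009, so the numbers were not shown to pair them. For the sex difference, leaving out 1 library gave 0 to 1 calls.

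The Nkx6-1 difference ran from -1.99 without cKO 3 to 2.74 without cKO 1. Of 147 named genes with a fit, 141 kept their direction in every alternative. The others were Aldh1l1 (-0.19 with the block, -0.19 to 0.93 leaving out 1 library), Apod (-0.19 with the left-out library), Mpo (-8.71 to 0.34), S100a8 (-6.01 to 0.72), Mmp8 (-1.74 to 6.63) and Rn45s (-0.077 to 1.06). Of 51 list medians, 21 changed sign in some alternative, mostly medians near 0. Those whose reported median was itself larger than its spread between libraries were fibroblast and collagen (-0.091 with the left-out library), ephrin and Eph (0.0016 with a minimum in 3 libraries, -0.56 to 0.45 leaving out 1), patterning homeobox factors (-0.14 with a minimum of 50, -0.020 to 0.51) and fatty acid synthesis (-0.039 to 0.33). The cause was not tested for any of these. The astrocyte median stayed between 1.33 and 1.97. With 2 against 3 libraries no permutation test can pass 0.05, and control 3, at 2246412 reads, makes a single read worth 2.14 normalized counts.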
